A study of Mus musculus with 31 samples.

Results

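The 31 genes described here encode chromatin and transcription regulators that have been linked to autism, and their levels were read in the basolateral amygdala (BLA) of 31 mice. Members were taken by gene symbol from a list of 31, and all 31 met the condition of at least 10 reads in 7 or more mice, as did 17428 of the 48709 genes counted. The mice were C57BL/6N animals from a pair of transgenic lines, labelled 1 and 3, that carry a bacterial artificial chromosome with the human CYFIP1 gene, introduced by pronuclear injection, or animals without it. The construct and founders are those the study describes for its lines. It numbers these without a 3, and no match of the names was assumed. They formed 4 groups, namely 8 Control mice (59 to 61 days old) and 7 CYFIP OE mice (59 to 77 days) of line 1, and 8 Control mice (58 to 60 days) and 8 CYFIP OE mice (58 to 64 days) of line 3. Each line goes back to a founder of its own. Where CYFIP OE mice are compared, a difference between the lines thus cannot be told apart from the effect of where the transgene was inserted. Control mice carry no transgene. RNA came from a punch of the BLA with both sides pooled, and QuantSeq, which counts the 3′ ends of transcripts, gave 1 library per mouse.

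DNA in the nucleus is wrapped around histones, and the members act on that packaging. Remodelers slide or evict nucleosomes with energy from ATP, methyltransferases and demethylases write and erase marks on histone tails, and DNA-binding factors with their co-regulators bring these enzymes to genes. Loss of 1 copy of many of these genes in people causes intellectual disability or autism, so that their dose in neurons is of interest. CYFIP1, the gene on the transgene, acts in the cytoplasm, where it links translation and the actin cytoskeleton.

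The libraries held between 5286708 and 8685308 counts (median 7387585). The mouse gene Cyfip1 had 23.4 to 39.6 CPM (counts scaled to library size after TMM normalization) in Control mice and 25.2 to 37.7 CPM in CYFIP OE mice, and these ranges overlapped. The genes counted are mouse genes, so that these values do not check which mice carried the human transgene. One CYFIP OE mouse of line 3, replicate 1, stood apart with a connectivity Z-score of -4.74, the next lowest being -1.18. All 4 mice aged 77 days were CYFIP OE mice of line 1, and 7 of the 8 Control mice of that line shared a name prefix, so that genotype, age and name group cannot be fully told apart there. Neuronal markers were present in every mouse, whereas markers of striatal projection neurons, which lie next to the BLA, varied widely. Of 7 such markers, 6 could be tested and Drd2 was at 0 in some mice. Their summed level ranged from 2840 to 3900 CPM (median 3600) in Control and 691 to 4400 CPM (median 2250) in CYFIP OE mice of line 1. It ranged from 247 to 5140 CPM (median 2290) in Control and 274 to 5650 CPM (median 3540) in CYFIP OE mice of line 3. Other lists varied widely as well. Over all mice, the summed level ran from 1060 to 8390 CPM for oligodendrocyte markers and from 13.5 to 8280 CPM for choroid plexus markers.

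The members were abundant in the amygdala. QuantSeq gives about 1 read per transcript whatever its length, so the levels below compare genes in CPM without a correction for length. The members' mean levels had a median of 59.8 CPM, beside 9.32 CPM for all genes tested and 13.4 CPM for the 13761 protein-coding genes among them. Of the 31 members, 24 lay among the top 20% of genes and 12 among the top 10%. At least 100 reads were counted in every mouse for 26 members, and counting error was small for these.

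The highest levels belonged to a pair of transcription factors and a co-activator. Foxp1, a forkhead repressor that striatal projection neurons express strongly, averaged 441 ± 178 CPM (SD, n = 31) and ranged from 121 to 813 CPM. Tcf4, a basic helix-loop-helix factor, averaged 265 ± 102 CPM with a range of 170 to 591 CPM. Ctnnb1, which encodes the Wnt co-activator β-catenin, averaged 189 ± 64.3 CPM with a range of 46.1 to 316 CPM. These 3 members also varied widely between mice, with coefficients of variation of 40.4%, 38.4% and 34.1%. The ranges of the 3 overlapped over mice, and the order of their means was not tested.

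The lowest levels were those of Asxl3, Kdm6b and Tcf20. Asxl3, a scaffold of a histone deubiquitinase, averaged 7.33 ± 1.78 CPM, and Kdm6b, a demethylase that removes the Polycomb mark, averaged 7.62 ± 2.35 CPM. Counting error alone gave a coefficient of variation of 14.3% for Asxl3 and 14.2% for Kdm6b, more than for any other member but Adnp (18.5%, with 1 read in 1 mouse). Tcf20, a nuclear co-regulator, averaged 14.9 ± 4.93 CPM. Only Asxl3 and Kdm6b lay below the median gene.

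**Figure D1:**
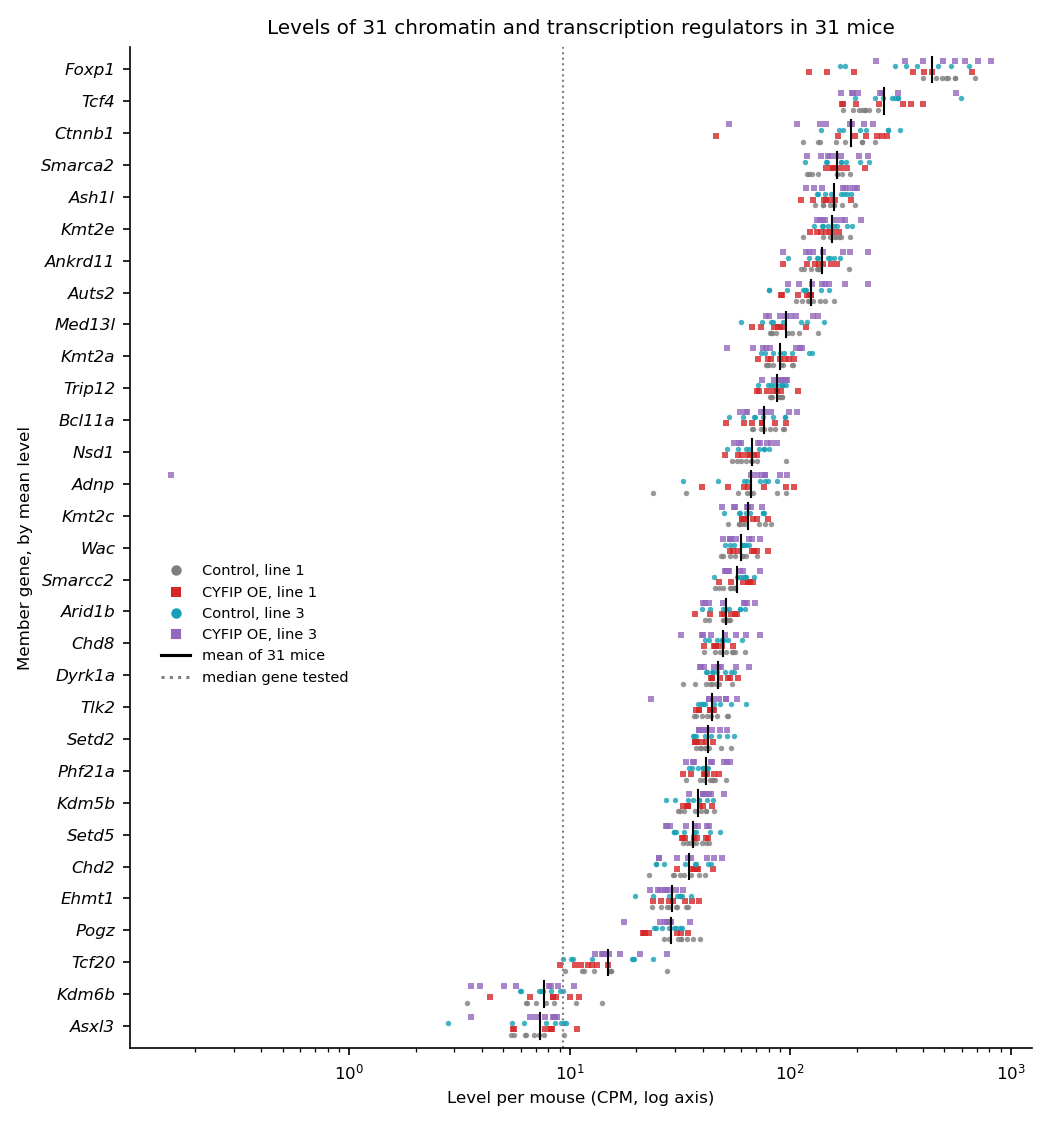
Level of each of the 31 members in each of the 31 mice (horizontal log axis, CPM), with members ordered by mean level. Points are mice coloured by group, the black bar is the mean of 31 mice and the dotted line is the median of all genes tested (9.32 CPM). All members but Asxl3 and Kdm6b have means to the right of that line, Foxp1 lies highest, and the single point far to the left is Adnp in 1 CYFIP OE mouse of line 3 (0.155 CPM).

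By role, the 5 remodelers had mean levels from 34.8 CPM for Chd2 to 163 CPM for Smarca2, an ATPase of the BAF complex. Between them lay Chd8, an ATPase that binds promoters (49.4 CPM), Arid1b, a DNA-binding BAF subunit (51.1 CPM), and Smarcc2, a BAF core scaffold (57.2 CPM). The 8 histone methyltransferases and their relatives ran from 29.1 CPM for Ehmt1, which marks silent chromatin, to 157 CPM for Ash1l, which marks active genes. Kmt2e, a relative of the Trithorax enzymes that reads histone marks, had 154 CPM, and Kmt2a and Kmt2c, which methylate promoters and enhancers, had 89.5 and 64.6 CPM. Nsd1 and Setd2, which both methylate histones across gene bodies, had 67.1 and 42.2 CPM, and Setd5 had 36.2 CPM. Kdm5b, which erases the promoter mark that Kmt2a writes, had 38.2 CPM.

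Among the other DNA-binding factors, Bcl11a, a zinc finger factor of projection neurons, had 76.4 CPM, Adnp, a homeodomain protein, had 66.5 CPM and Pogz, a zinc finger protein that binds heterochromatin protein, had 28.7 CPM. The co-regulators Ankrd11, which binds deacetylases, and Auts2, which joins a Polycomb complex, had 139 and 125 CPM. Med13l, of the kinase module of Mediator, had 95.5 CPM, Wac, an adaptor for histone ubiquitination, had 59.8 CPM and Phf21a, a reader in the LSD1-CoREST complex, had 41.6 CPM. Trip12, a ubiquitin ligase, had 86.8 CPM, and the kinases Dyrk1a and Tlk2 had 46.8 and 44.2 CPM. Trip12 varied least of all members, with a coefficient of variation of 9.58%.

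The members also shared properties that were not named as conditions for their choice. Their genes were long, with a median span of 115200 bases from first to last exon beside 25800 bases for the protein-coding genes tested, and 30 of 31 lay above that value. The longest transcript had a median of 7409 bases beside 3513, with 31 of 31 above. Auts2, the longest, spans chr5:131437333-132543344 of GRCm38 on the minus strand. Variation between mice beyond counting error was small, since the biological coefficient of variation that edgeR estimates was below that of the median gene tested for 28 members, with a median of 18% for the members and 34.2% for all genes. Genes with more reads tend to give smaller estimates of this kind, and matching for level was not done.

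Promoter sequence was given by RefSeq for 22 of the members used here, as 29 windows of 300 bases (250 before and 50 after a start) on GRCm38.p6. These windows were rich in G and C, with a median of 70.3% and 30 CpG dinucleotides, beside 60.3% and 19 for 14841 windows of all genes tested. On both strands, TATAAA was found in 6.90% of the members' windows and in 7.67% of all windows. The ETS motif CCGGAAG was found in 2 members' windows, those of Chd8 and Smarca2 (6.90%, beside 15.2% of all). TGACGTCA, the cAMP response element, was found in 0 of the 29 beside 2.82% of all, and the 10-base NRF1 motif in 0 beside 1.84%.

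Foxp1, on which most of the results below turn, has 3 RefSeq starts that differ in CpG content, and they are shown because a 3′ count adds up transcripts from all of them. The windows hold 44, 5 and 13 CpG dinucleotides in the order printed, which is that of the chromosome. All 3 lie on the minus strand of chromosome 6 and read 5′ to 3′, with CG in capitals.
Foxp1 start at chr6:99028249-99028548: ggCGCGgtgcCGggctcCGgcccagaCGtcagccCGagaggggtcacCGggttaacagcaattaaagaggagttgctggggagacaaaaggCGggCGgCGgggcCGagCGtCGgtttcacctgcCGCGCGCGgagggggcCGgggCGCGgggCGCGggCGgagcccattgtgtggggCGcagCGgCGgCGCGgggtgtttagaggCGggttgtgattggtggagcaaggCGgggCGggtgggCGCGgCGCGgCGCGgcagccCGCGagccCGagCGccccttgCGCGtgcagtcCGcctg
Foxp1 start at chr6:99266466-99266765: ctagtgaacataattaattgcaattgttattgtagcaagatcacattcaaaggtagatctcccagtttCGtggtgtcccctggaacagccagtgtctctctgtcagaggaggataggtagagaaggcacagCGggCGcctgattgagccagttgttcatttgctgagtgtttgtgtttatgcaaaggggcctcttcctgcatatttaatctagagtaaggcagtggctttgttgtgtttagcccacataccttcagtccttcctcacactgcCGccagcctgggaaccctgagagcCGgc
Foxp1 start at chr6:99520944-99521243: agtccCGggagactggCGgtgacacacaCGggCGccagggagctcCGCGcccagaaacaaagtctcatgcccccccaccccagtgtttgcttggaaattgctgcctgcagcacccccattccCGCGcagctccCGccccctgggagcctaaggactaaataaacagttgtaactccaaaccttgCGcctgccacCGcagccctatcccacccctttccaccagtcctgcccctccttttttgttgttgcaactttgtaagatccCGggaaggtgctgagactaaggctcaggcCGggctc
Which of these starts the BLA uses was not measured.

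The first comparison asked whether CYFIP1 overexpression came with different levels of the members over both lines. No fitted difference of a member was larger than 0.17 on the log2 scale. The p-values given are those of edgeR, unadjusted where not called adjusted. With sex and line as covariates, 14 members had higher fitted levels in CYFIP OE than in Control mice (48.7% of all genes tested did) and 17 lower, and their log2 fold changes ran from -0.17 to 0.14 with a median of -0.01, which was also the median of all genes tested. Of the 31, 0 had an unadjusted p under 0.05, while 4.30% of all genes tested did, and the smallest adjusted p was 0.999 (edgeR). By DESeq2 the count was also 0. With age as a covariate, 21 of the 31 members had higher fitted levels in CYFIP OE mice, and 19 did without the mice aged 77 days. Whether more members were higher or lower thus depended on how age was treated, and the cause was not tested.

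Pogz had the smallest p (log2 fold change -0.17, standard error 0.09, p of 0.0825). Chd2, a remodeler found at active genes, had the highest value (0.14, standard error 0.10, p of 0.196). All 8 histone methyltransferases had values below 0, from -0.09 to -0.01, each within about 1 standard error of 0. Of the 17428 genes tested, 8938 were below 0. Within the lines, 6 of these 8 members were below 0 in line 1 and 5 in line 3. The standard errors bound what could have been missed in this average over the lines. Its 95% interval lay within 0.5 of 0 on the log2 scale for 28 members, the exceptions being Adnp, Ctnnb1 and Foxp1. The bounds were looser within a line, with 22 members inside in line 1, 24 in line 3 and 12 for the difference between the lines. With 5 surrogate variables in the model, Foxp1 had a log2 fold change of -0.25 (p of 0.000886), and 1 member then passed an unadjusted 0.05 beside 5.49% of all genes. That p was also under 0.005, the threshold of the study, whose model held sequencing principal components that were not used here. The share of all genes under 0.005 in that fit is not given.

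Within each line the differences were wider and often opposite. Of the 31 members, 5 were higher and 5 lower in CYFIP OE mice in both lines, whereas 13 were lower in line 1 and higher in line 3 and 8 the reverse. The same sign in both lines was thus seen for 32.3% of the members and for 45.8% of all genes tested. In line 1, 3 of 31 members had an unadjusted p under 0.05 (3.96% of all genes did), namely Foxp1, Pogz and Smarcc2. In line 3 it was 1 of 31 (7.93% of all genes), namely Auts2. The test of the difference between the lines gave 3 of 31 (8.10% of all genes), namely Foxp1, Auts2 and Smarcc2. Adjusted over all 17428 genes, the smallest p of a member was 1 in line 1, 0.525 in line 3 and 0.535 for the difference, and 0 members had an unadjusted p under 0.005, the threshold of the study, in any of these tests (0.293% of all genes did over both lines, 0.350% in line 1, 0.930% in line 3 and 0.843% for the difference). An adjusted p under 0.05 was reached by 0 of all genes in each of them. The study also removed samples with a connectivity Z-score under -2, whereas these fits kept the mouse at -4.74. Without it, 4 of 31 members had an unadjusted p under 0.05 for the difference between the lines (10.4% of all genes). Foxp1 then had a p of 0.00343 (edgeR), which is under 0.005. The study applied that threshold to a single genotype term over its lines and not to a difference between lines. The share of all genes under 0.005 in this fit is not given.

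**Figure D2:**
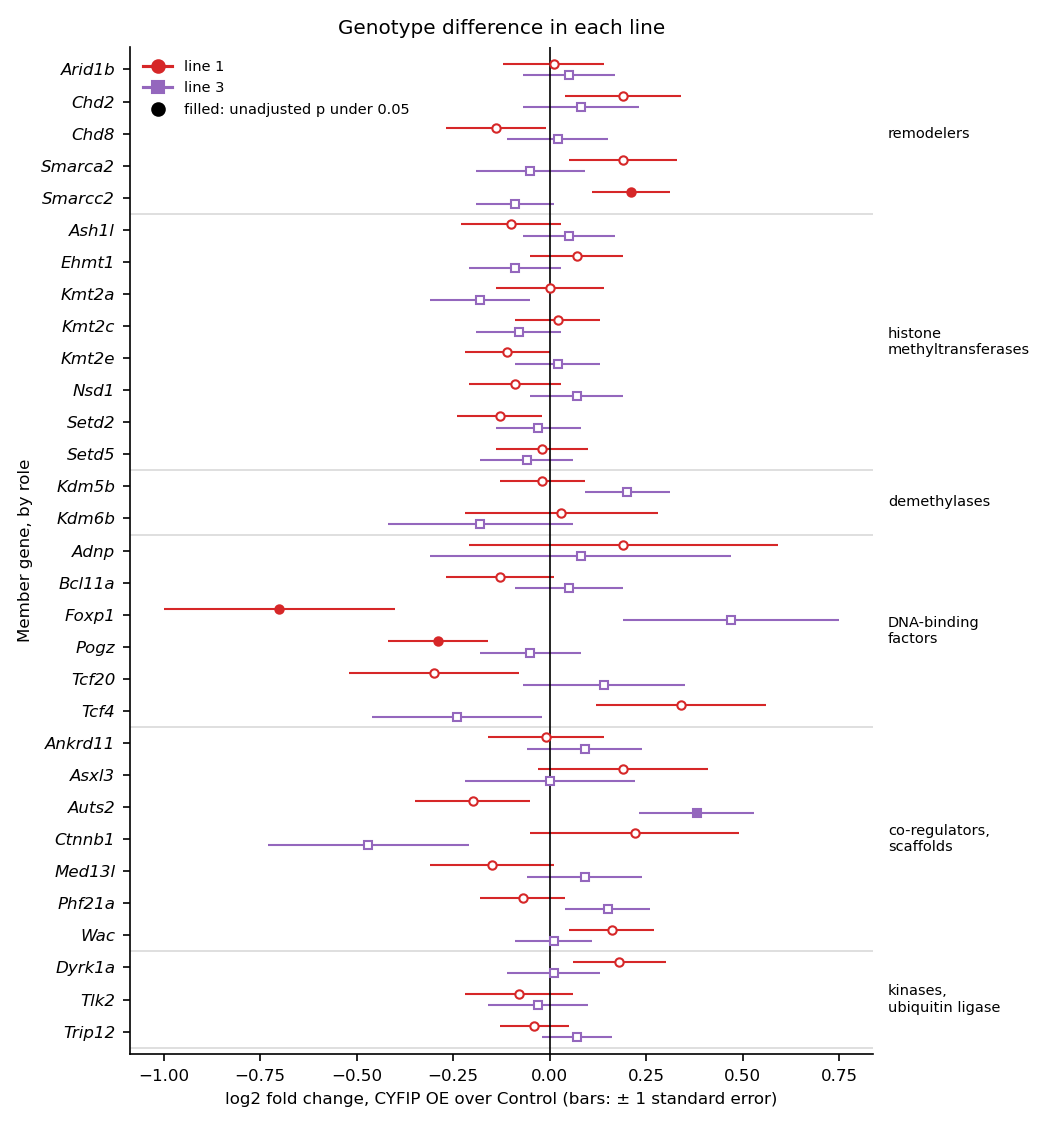
Log2 fold change of CYFIP OE over Control mice for each member (horizontal axis), with line 1 as circles and line 3 as squares, bars of 1 standard error and filled symbols where the unadjusted p was under 0.05. Most members lie near 0 in both lines, whereas Foxp1 lies at -0.70 in line 1 and 0.47 in line 3, and Auts2 at -0.20 and 0.38.

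Foxp1 (ENSMUSG00000030067, chr6:98925338-99522721, minus strand) showed the widest difference between the lines. In line 1 it had 399, 513 and 685 CPM (lowest, median and highest mouse) in the 8 Control mice and 121, 361 and 670 CPM in the 7 CYFIP OE mice. In line 3 it had 168, 355 and 644 CPM in Control and 244, 525 and 813 CPM in CYFIP OE mice. The groups overlapped in both lines, although 4 of 7 CYFIP OE mice of line 1 lay below every Control mouse of that line and 6 of 8 of line 3 lay above the Control mean. The log2 fold change was -0.70 in line 1 (standard error 0.30, p of 0.0240) and 0.47 in line 3 (standard error 0.28, p of 0.103), a difference of 1.17 (standard error 0.41, p of 0.00702). An exact permutation test of the mean log2 CPM, added after these values were seen, gave p = 0.0252 in line 1 and 0.133 in line 3 (two-sided).

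The Foxp1 values depended on the model and on the age groups. With age as a covariate the line 1 value was -0.37 (p of 0.331), without the 4 mice aged 77 days it was -0.36 (p of 0.347), and the difference between the lines was 0.85 (p of 0.0723) and 0.84 (p of 0.0863). With 5 surrogate variables the difference was 0.27 (p of 0.0757). Without the mouse of low connectivity it was 1.26 (p of 0.00343). Over mice, Foxp1 moved with the summed striatal markers (r = 0.85 on a log scale, 31 mice that share libraries and normalization), within line 1 (r = 0.97, 15 mice) and within line 3 (r = 0.87, 16 mice). The medians of that sum were ordered like those of Foxp1 within each line. The part of these cells in the Foxp1 differences was not tested, and in a tissue punch fewer cells of a type and less RNA per cell cannot be told apart.

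Tcf4 ran the other way. It had 174, 214 and 249 CPM in Control and 171, 254 and 401 CPM in CYFIP OE mice of line 1, and 196, 294 and 591 CPM in Control and 170, 229 and 564 CPM in CYFIP OE mice of line 3. The groups overlapped, and the highest mouse of each line 3 group stood far above the others. Its log2 fold change was 0.34 in line 1 (p of 0.145) and -0.24 in line 3 (p of 0.284), and the difference between the lines was -0.57 (standard error 0.31, p of 0.0761). Without the mouse of low connectivity, which had the 564 CPM, the line 3 value was -0.46 (p of 0.0198) and the difference -0.79 (p of 0.00529). Over mice Tcf4 was opposed to the striatal markers (r = -0.91) and moved with the markers of principal neurons (r = 0.82), and their part in these values was not tested either.

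Auts2 (ENSMUSG00000029673) differed in line 3. It had 80.2, 115 and 150 CPM in Control and 97.2, 141 and 224 CPM in CYFIP OE mice there, and 106, 124 and 157 CPM in Control and 90.6, 119 and 124 CPM in CYFIP OE mice of line 1. In line 3, 6 of 8 CYFIP OE mice were above the Control mean and 2 above every Control mouse, while in line 1 all 7 were below the Control mean. The log2 fold change was 0.38 in line 3 (standard error 0.15, p of 0.0132) and -0.20 in line 1 (p of 0.186), a difference of 0.59 (standard error 0.21, p of 0.00876). By the exact permutation test p = 0.0569 in line 3 and 0.0622 in line 1. The mouse of low connectivity was the one with 224 CPM, and without it the line 3 value was 0.27 (p of 0.0526) and the difference 0.48 (p of 0.0168). With 5 surrogate variables the difference was 0.28 (p of 0.0587). With name group as a term the line 3 value was 0.37 (p of 0.0641).

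Smarcc2 (ENSMUSG00000025369, chr10:128459248-128490482, plus strand) was read at 45.7, 53.6 and 56.2 CPM in Control and 47.4, 64.3 and 67.5 CPM in CYFIP OE mice of line 1. In line 3 it had 45.1, 61.5 and 68.4 CPM in Control and 50.6, 52.4 and 72.9 CPM in CYFIP OE mice. In line 1, 5 of 7 CYFIP OE mice lay above every Control mouse, and in line 3, 6 of 8 lay below the Control mean. The log2 fold change was 0.21 in line 1 (standard error 0.10, p of 0.0422) and -0.09 in line 3 (p of 0.380), a difference of -0.30 (standard error 0.14, p of 0.0400). By the exact permutation test p = 0.0239 in line 1. The line 1 call was lost with age as a covariate (0.22, p of 0.0958), without the mice aged 77 days (0.23, p of 0.0837) and with no filter on low counts (0.21, p of 0.112). The call for the difference was lost in these too (p of 0.0662, 0.0612 and 0.104), with 5 surrogate variables (-0.21, p of 0.136) and without the mouse of low connectivity (-0.28, p of 0.0529).

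Pogz (ENSMUSG00000038902, chr3:94837567-94882326, plus strand) had 26.6, 32.0 and 38.9 CPM in Control and 21.4, 22.8 and 34.5 CPM in CYFIP OE mice of line 1. In line 3 it had 24.0, 28.8 and 32.4 CPM in Control and 17.6, 27.9 and 35.2 CPM in CYFIP OE mice. In line 1, 4 of 7 CYFIP OE mice lay below every Control mouse, and the groups overlapped through the other 3. The log2 fold change was -0.29 in line 1 (standard error 0.13, p of 0.0329) and -0.05 in line 3 (p of 0.716). By the exact permutation test p = 0.0326 in line 1. The lines were not shown to differ (difference 0.25, standard error 0.18, p of 0.187). With age as a covariate the line 1 value was -0.21 (p of 0.224), without the mice aged 77 days it was -0.18 (p of 0.293) and with no filter on low counts -0.30 (p of 0.0513).

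**Figure D3:**
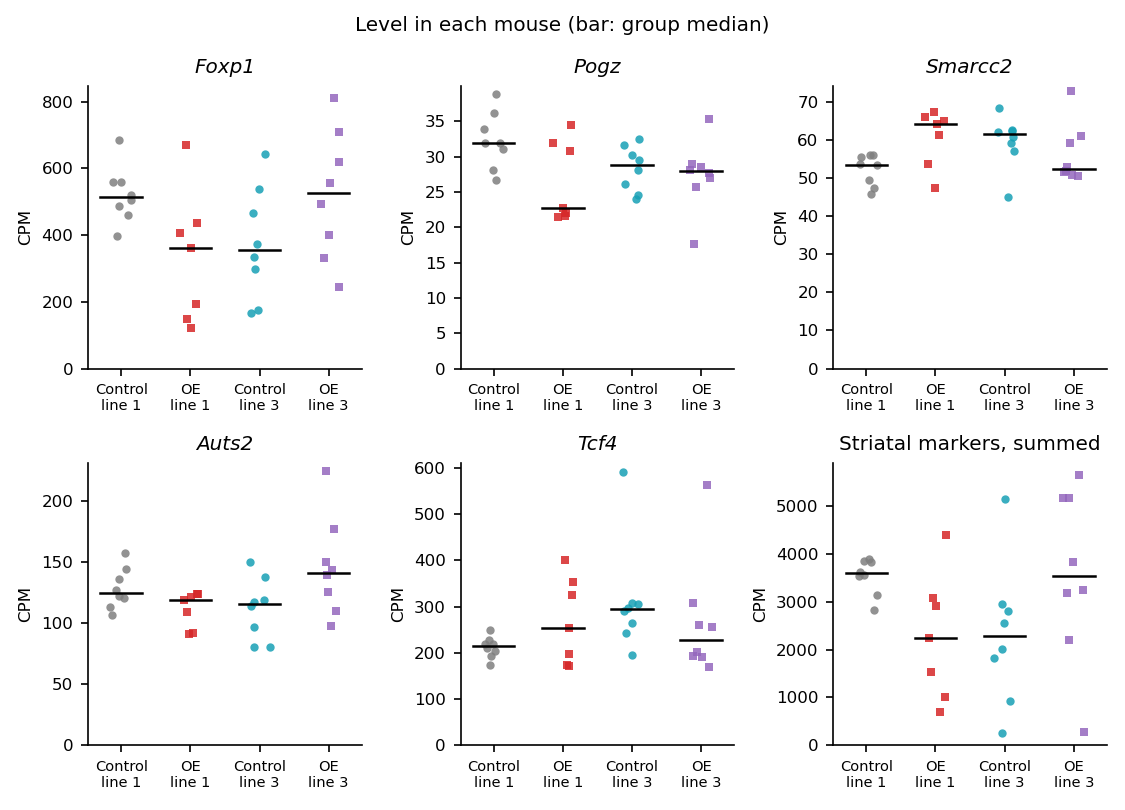
Level of Foxp1, Pogz, Smarcc2, Auts2 and Tcf4 and the summed level of the striatal markers (vertical axes, CPM, from 0) in each mouse of the 4 groups, with a bar at the group median. The medians of Foxp1 (513, 361, 355 and 525 CPM from left to right) and of the striatal markers (3600, 2250, 2290 and 3540 CPM) both lie lower in CYFIP OE than in Control mice of line 1 and higher in line 3, and no pair of genotype groups is fully apart.

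The 3 members of lowest level showed no difference past an unadjusted 0.05. Asxl3 had medians of 6.60 CPM in Control and 8.20 CPM in CYFIP OE mice of line 1 and 8.17 and 8.03 CPM in line 3, with a range over all mice of 2.81 to 10.8 CPM. Kdm6b had medians of 7.43 and 8.38 CPM in line 1 and 7.49 and 6.91 CPM in line 3, with a range of 3.41 to 14.1 CPM. Tcf20 had medians of 14.0 and 12.2 CPM in line 1 and 15.8 and 14.6 CPM in line 3, with a range of 9.01 to 27.7 CPM. For all 3, the CYFIP OE and Control mice overlapped in each line.

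A pair of members were opposed in level to a gene that overlaps them. Adnp (chr2:168180986-168207112, minus strand) lies wholly within Gm20716, a gene model on the same strand (chr2:168180986-168230364), and reads of their shared span can be assigned to either. One CYFIP OE mouse of line 3, replicate 8, had 0.155 CPM of Adnp, or 1 read, beside 23.7 to 104 CPM in the other 30 mice, and the same mouse had the highest Gm20716 level, 76.9 CPM. Gm20716 was at 0 in 17 mice, and the r of the 2 levels was -0.87 over 31 mice. Their sum was 78.9 ± 11.4 CPM (SD, n = 31), with a coefficient of variation of 14.4% instead of 34.7% for Adnp alone. For the sum, the log2 fold change over both lines was -0.01 (p of 0.943), beside 0.13 (p of 0.628) for Adnp as counted.

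Ctnnb1 (chr9:120929216-120960507, plus strand) overlaps the end of Ulk4, a kinase-like gene on the opposite strand (chr9:120955351-121277197). The levels of both were opposed over mice (r = -0.75), and their sum was 318 ± 42.4 CPM with a coefficient of variation of 13.3%. Ctnnb1 had 114, 169 and 243 CPM in Control and 46.1, 220 and 275 CPM in CYFIP OE mice of line 1, and 138, 214 and 316 CPM in Control and 52.9, 165 and 237 CPM in CYFIP OE mice of line 3. In line 3 the log2 fold change was -0.47 (standard error 0.26, p of 0.0838), and with the reads of both genes summed it was -0.13 (p of 0.247). Ctnnb1 had an equally large r with the summed microglial markers (-0.76, with sex, line and genotype removed), and whether reads were divided between Ctnnb1 and Ulk4 was not tested. Values for Adnp and Ctnnb1 are given as uncertain.

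**Figure D4:**
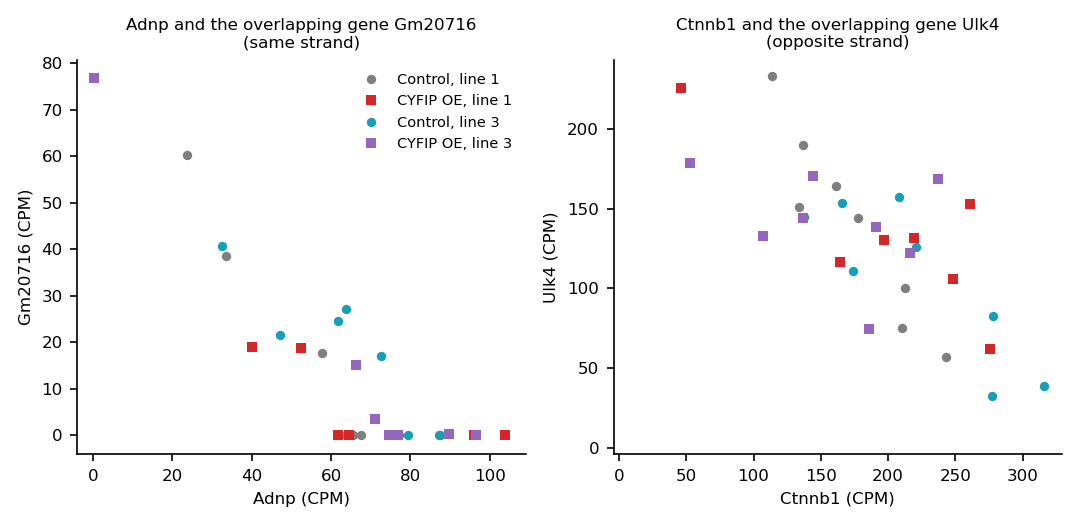
Level of Adnp against Gm20716 (left) and of Ctnnb1 against Ulk4 (right) in each of the 31 mice, all axes in CPM and points coloured by group. In both panels the mice with little of the member have more of the gene that overlaps it, and the r was -0.87 on the left and -0.75 on the right.

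Of the other members, 5 overlap a gene with at least 10% of their level, and none of these pairs was opposed in the same way. Kmt2e and Srpk2, on opposite strands, had an r of 0.50. Auts2 and a transcript within it on the same strand, Gm42992, had an r of 0.64 and 0.30 with another, Gm42440, and for Ash1l with Dap3, Chd2 with 1810026B05Rik and Tcf20 with Gm29019 it was -0.11, -0.07 and 0.

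Line and sex were compared next. Between the lines, 0 of 31 members had an unadjusted p under 0.05 over all mice (3.31% of all genes did), by edgeR and by DESeq2, and the values ran from -0.18 to 0.29 on the log2 scale as line 3 minus line 1. Tcf4 (0.29, p of 0.0879) and Tcf20 (0.28, p of 0.0784) were the highest. Among Control mice alone, Tcf4 was higher in line 3 by 0.55 (p of 0.00293) and Foxp1 lower by 0.49 (value -0.49, p of 0.0411), 2 of 31 members beside 6.13% of all genes. The striatal markers, with Control medians of 3600 CPM in line 1 and 2290 CPM in line 3, were lower in line 3 too. Control levels enter the genotype difference of each line, so those of Foxp1 and Tcf4 bear on the differences between the lines given above. Between the sexes, 0 of 31 members had an unadjusted p under 0.05 (4.62% of all genes did), by either tool. Kmt2a was the nearest (0.18 as male minus female, standard error 0.10, p of 0.0646).

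A subset of the member pairs varied together from mouse to mouse. Over 31 mice, with sex, line and genotype removed from the log2 CPM, the 465 pairs had a median r of 0.06 (jackknife standard error 0.054 over mice), beside 0 for all gene pairs. An r of 0.5 or more was seen in 48 pairs, or 10.3%, beside 2.04% of all gene pairs and 3.44% of pairs among genes with at least 10 reads in every mouse. All values share the same libraries and normalization, and pairs that share a gene are not independent, so these are given as a description.

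One block of members stood out in which remodelers, methyltransferases and co-regulators were mixed, led by Auts2, Ankrd11, Kmt2e, Kmt2a, Med13l and Chd8, whose median r with the other members was 0.26 to 0.29. The highest pairs were Kmt2e with Med13l (r = 0.785), Tcf20 with Med13l (0.716) and Chd2 with Ankrd11 (0.712). Kmt2e and Med13l ranged from 115 to 208 CPM and from 59.5 to 142 CPM over mice, and Chd2 and Ankrd11 from 22.9 to 49.3 CPM and from 92.9 to 224 CPM. Group medians of Kmt2e were 159 and 145 CPM in Control and CYFIP OE mice of line 1 and 153 and 152 CPM in line 3, and those of Med13l were 91.6, 87.6, 88.3 and 98.3 CPM in the same order. For Chd2 they were 32.2, 37.1, 35.2 and 34.9 CPM, and for Ankrd11 133, 135, 141 and 133 CPM. None of these 4 members had a genotype difference past an unadjusted 0.05.

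The lowest r was that of Foxp1 with Tcf4 (-0.779), the pair that followed the striatal markers in opposite directions. Ctnnb1 was opposed to Auts2 (-0.651) and Ankrd11 (-0.647). With the same covariates removed, 5 members had an r of at least 0.5 in size with the striatal markers, namely Foxp1 (0.86), Tlk2 (0.56), Ash1l (0.52), Wac (-0.52) and Tcf4 (-0.92), while the r of the members with the total counts of a mouse ran from -0.39 to 0.29. Other marker lists reached that size as well. Tcf4 had -0.83 with interneuron and 0.81 with principal neuron markers, and Smarca2 had -0.69 with oligodendrocyte markers. Pogz had 0.59 with immediate early genes, and Smarcc2 had 0.59 with neuronal markers. The r with the share of counts on mitochondrial genes was 0.68 for Foxp1 and -0.59 for Tcf4, and the group medians of that share were 8.19% in Control and 7.5% in CYFIP OE mice of line 1 and 7.58% and 7.93% in line 3, lower and higher as for Foxp1. Auts2 had an r of 0.60 with the summed microglial markers and of 0.28 with the striatal markers. The latter depended on the mouse of low connectivity, which also had the highest microglial sum (313 CPM). Computed as for Foxp1 within lines, the r of Auts2 with the striatal markers was 0.25 over all mice and 0.71 without that mouse. The part of cell mixture or of the mitochondrial share in these values was not tested.

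**Figure D5:**
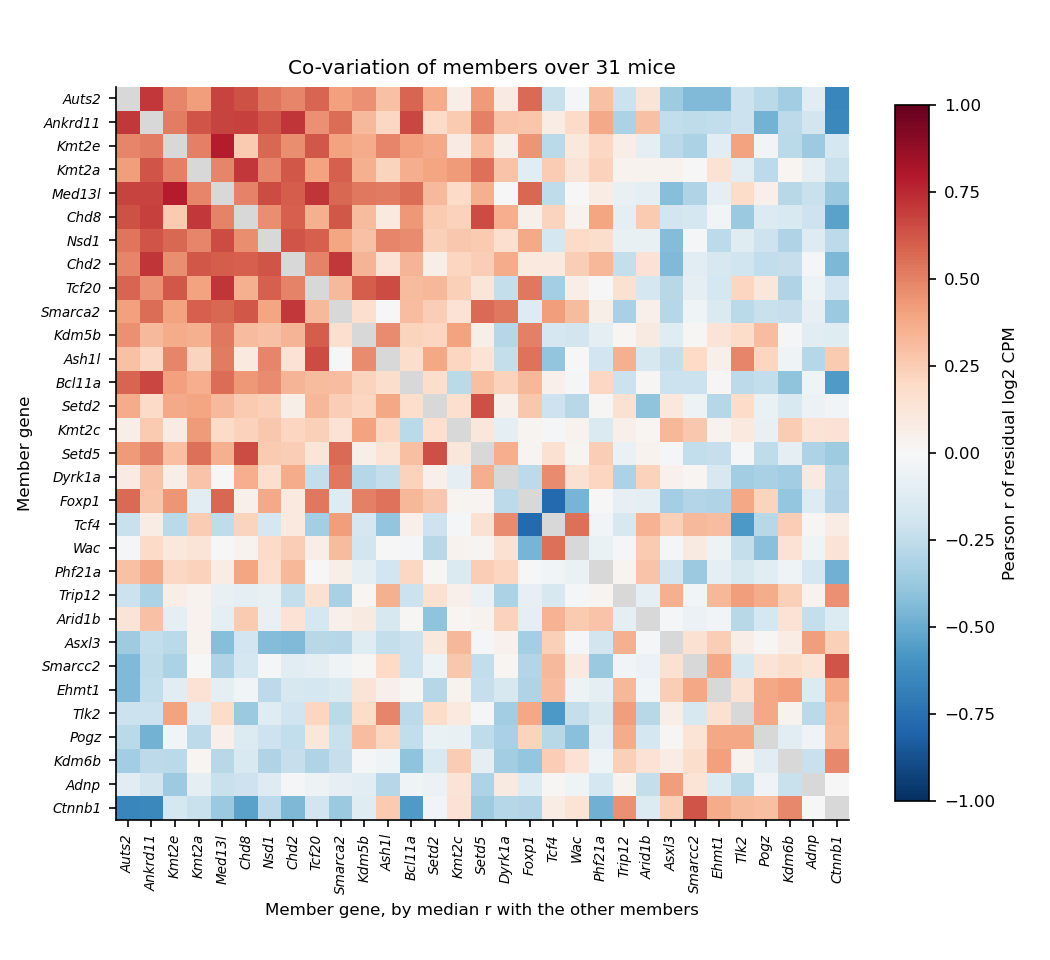
Pearson r between every pair of the 31 members over 31 mice (colour, from -1 in blue to 1 in red), computed on log2 CPM with sex, line and genotype removed and ordered by the median r of each member with the others. A red block at the upper left joins Auts2, Ankrd11, Kmt2e, Kmt2a, Med13l and Chd8 with others, the deepest blue cell is Foxp1 with Tcf4 (-0.779), and Ctnnb1 at the edge is opposed to Auts2 and Ankrd11.

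Partners of the members in the same complexes and families were read as a list of 70 genes. They comprised 23 of the BAF and PBAF remodelers, 7 CHD proteins, 15 of the COMPASS methyltransferases, 13 of the H3K9, H3K36 and LSD1-CoREST enzymes and their binding partners, 6 of the Mediator kinase module and 6 relatives of the transcription factors. Over both lines 2 were higher and 2 lower at an unadjusted p under 0.05 (4.30% of all genes passed it), in line 1 it was 0 and 3 (3.96% of all genes), and in line 3 it was 3 and 1 (7.93% of all genes), and none passed 0.005. For the difference between the lines 6 were above 0 and 1 below, or 7 of 70 beside 8.10% of all genes.

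Chd4, the ATPase of the NuRD complex, was the only partner with a p under 0.005, in the test of the difference between the lines. That is 1 of 70, beside 0.843% of all genes. Values with age as a covariate, without the mice aged 77 days or without the mouse of low connectivity are not given for it. It had 141, 166 and 185 CPM in Control and 112, 125 and 154 CPM in CYFIP OE mice of line 1, and 113, 133 and 195 CPM in Control and 120, 167 and 199 CPM in CYFIP OE mice of line 3. Its log2 fold change was -0.34 in line 1 (standard error 0.12, p of 0.00751), and the lines differed by 0.55 (standard error 0.17, p of 0.00217, adjusted p = 0.535). The other partners counted were named after their values were seen. Smarcc1, the close relative of Smarcc2 in BAF, had the smallest p over both lines (0.32, standard error 0.12, p of 0.00978), and Dpf1, a neuronal BAF subunit, was higher there too (0.24, p of 0.0285). Chd1 (-0.23, p of 0.0206) and the Mediator kinase Cdk8 (-0.27, p of 0.0274) were lower. In line 1 the others were the Mediator kinase Cdk19 (-0.62, p of 0.00959) and the forkhead factor Foxp2 (-0.68, p of 0.0277), a relative of Foxp1. In line 3 they were Dpf1 (0.40, p of 0.00776), Smarcc1 (0.40, p of 0.0199), the BAF subunit Smarcd3 (0.41, p of 0.0242) and Cdk8 (-0.39, p of 0.0235). Each of these had an adjusted p of at least 0.514.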

How the data were processed

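BLA RNA of 31 mice was sequenced by QuantSeq. The authors aligned with STAR (GRCm38) and used Salmon to make the deposited expected counts per gene, which are estimated counts with decimals, without normalization. Each mouse was taken as 1 replicate. Counts were rounded, genes with at least 10 reads in 7 mice were kept, and edgeR 4.0.16 (R 4.3.3; TMM, two-sided quasi-likelihood F test) was fitted to all 17428 genes with sex, line and genotype, or with genotype within each line, with Benjamini-Hochberg adjustment over all of them. Sequencing principal components, part of the authors' own model, were left out; alternatives had 5 surrogate variables (sva 3.50.0), DESeq2 1.42.0 or an exact permutation test. Co-variation used log2 CPM with a prior count of 2. Fits were tested on simulated counts. Symbols came from GENCODE for 48349 identifiers. Members and lists were chosen with earlier results of these data known. Group values were given for members with an unadjusted p under 0.05, for the 3 highest and 3 lowest levels and for the most and least correlated pairs, and partners were named under 0.005. The connectivity Z-score measures how well a mouse correlates with all others.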

Additional observations from a re-analysis of the deposited data

Results flagged for a closer look

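In 9 of 124 combinations of a member and a group, the highest or lowest mouse lay further from the others than Dixon's criterion allows, and chance alone would give about 1 in 20, or 6.2. The CYFIP OE mouse of line 3 with low connectivity (replicate 1) had the highest Tcf4 (564 CPM, the others 170 to 308) and the lowest Tlk2 (23.5 CPM, the others 42.7 to 57.5) of its group. Replicate 8 of that group had the lowest Adnp (0.155 CPM, the others 66.2 to 96.6) and the lowest Asxl3 (3.57 CPM, the others 6.58 to 8.77), and replicate 4 the highest Smarcc2 (72.9 CPM, the others 50.6 to 61.0). Replicate 8 of the Control mice of line 1 had the highest Ankrd11 (185 CPM, the others 112 to 136), Nsd1 (95.2 CPM, the others 54.6 to 70.6) and Tcf20 (27.6 CPM, the others 9.50 to 15.4), which are members that also varied together. Among the Control mice of line 3, replicate 2 had the highest Tcf4 (591 CPM, the others 196 to 308).

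The genotype difference (log2) of line 3 minus that of line 1 had an unadjusted p under 0.05 by edgeR for Foxp1 (1.17), Auts2 (0.59) and Smarcc2 (-0.30), and for each of them the adjusted p over all genes was at least 0.535.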

How the results depend on the processing

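No paired analysis was possible by replicate number because the labels give none, and name groups that hold both genotypes, whose meaning the labels do not state, were used as a block instead, over both lines and in line 3. Of the 112 alternatives for the counts of members, the co-variation and the levels, 97 stayed within their limits. These limits were wide enough to hold a change in which direction more members had. Members higher in CYFIP OE mice over both lines numbered 21 with age as a covariate and 19 without mice aged 77 days, in place of 14. The count of members with an unadjusted p under 0.05 over both lines was 1 with 5 surrogate variables in place of 0. In line 1 it was 1 without a filter, 0 with age as a covariate and 0 without mice aged 77 days in place of 3. In line 3 it was 3 without a filter, 2 without the mouse of low connectivity (Foxp1 and Tcf4), 0 with name group as a term and 0 by the exact permutation test in place of 1. For the difference between the lines it was 1 with 5 surrogate variables (Trip12), 1 with age and 1 without mice aged 77 days (both Auts2) in place of 3. For line it was 2 with 5 surrogate variables and 2 in Control mice alone, and for sex 1 without mice aged 77 days (Kdm5b), in place of 0. The median r in Control mice alone was 0.12.

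Of the members named one by one, the 7 differences past 0.05 kept their sign in all 55 alternatives and the side of 0.05 in 35, and the cause of the others was not tested. Many of these alternatives reuse the same mice, so they are not independent of each other. The 3 calls in line 1 were all lost with age as a covariate and without the mice aged 77 days. With Adnp and Gm20716 summed, which was chosen after seeing the data, the Adnp values turned to -0.01 over both lines, -0.003 in line 1 and -0.01 in line 3, and the difference between the lines turned to 0.10 without the mouse with 1 Adnp read. Depth limits Asxl3 and Kdm6b, which had as few as 19 and 24 reads in a mouse.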
